A study of Mus musculus with 6 samples.

Results

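The genes described here encode 10 integrin subunits of leukocytes and platelets: Itgam, Itgal, Itgax, Itgb2, Itga4, Itgb1, Itgb7, Itgb3, Itga2b and Itgav. They were chosen by symbol, and all 10 had a row among the 15035 gene rows of the table. RNA-seq had been run on mouse bone marrow cells of the strain BALB/c that expressed mutant CSF3R, the receptor of granulocyte colony-stimulating factor, and mutant CEBPA, a myeloid transcription factor, from retroviruses. Both groups were this leukemia, grown in IMDM with 20% FBS, and carried both mutant genes. One group of 3 libraries came from cells kept for 48 h in 4 nM GSK-LSD1, which blocks LSD1, an enzyme that removes methyl groups from histone H3. The other 3 libraries came from cells given DMSO, the solvent, for 48 h. The labels tie no library to a separate animal or culture and do not say how many transduced marrows or clones the leukemia stands for, so the spread behind every p-value is that between these libraries and may be technical.

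Integrins are adhesion receptors made of 1 alpha and 1 beta subunit, and a subunit that finds no partner is not carried to the cell surface. The beta2 integrins bind ICAM family proteins, fibrinogen and complement fragments and serve leukocyte arrest and phagocytosis. The alpha4 integrins bind VCAM-1, fibronectin and MAdCAM-1 and hold progenitors in the marrow or send cells to the gut, and the beta3 integrins bind fibrinogen, vitronectin and other proteins with an RGD motif. RNA levels were measured here, not protein on the cell surface.

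After GSK-LSD1, the leukemia cells carried more RNA of Itgam, Itgb3 and Itgb7, slightly more of Itga4 and Itgal, and less of Itgav and Itga2b. Of the 9 integrin genes that could be tested, 5 rose, 2 fell and 2 did not pass. The test was limma on log2(value + 1) with Benjamini-Hochberg adjustment over 11588 genes, with a threshold of 0.05. It called 41.1% of all genes tested, 20.6% higher and 20.5% lower. With edgeR on recovered reads, which called 41.3% of genes, the members' calls were the same. The members' median log2 fold change was 0.18, against -0.01 over all genes tested. Itgam and Itgb3 were past the threshold with a log2 fold change of at least 1, which 4.51% of all genes tested reached upward. Itgax was left out by the filter, which kept genes that reached a value of 10 in 3 or more of the 6 libraries. All values below are scaled read counts unless another scale is named, and fold changes are GSK-LSD1 over DMSO.

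**Figure D1:**
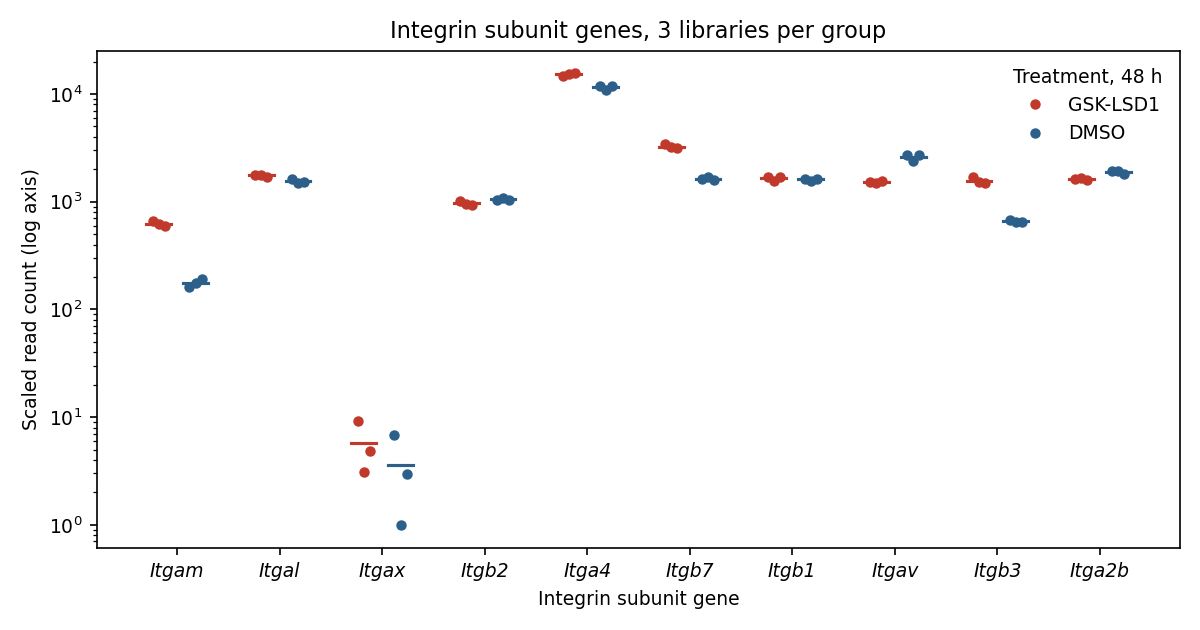
Scaled read count of each integrin subunit gene in each library, on a log axis, with the 3 GSK-LSD1 libraries (red) left of the 3 DMSO libraries (blue) and a line at each group mean. Itgam, Itgb7 and Itgb3 stand higher in every GSK-LSD1 library than in any DMSO library, Itgav stands lower, and Itgax is near the floor in both groups.

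The depth and the cell type markers of the libraries were as follows. For each marker list here and below, the share to set beside its counts is that of all genes tested. Of those, 41.1% were called, 20.6% higher and 20.5% lower. Each library held 9572638 to 10199533 reads, taking its smallest value as 1 read, and its scaled total was 9877460 to 10107885. All 12 listed markers of early myeloid cells could be tested, 6 higher and 4 lower, with the highest mean values for Mpo (8952 ± 164 with GSK-LSD1, 7390.3 ± 377 with DMSO) and Cebpa (4332 ± 49.0 and 4437 ± 562), each ± SD with n = 3. The 4 that fell were Ms4a3, Elane, Prtn3 and Ctsg, with log2 fold changes of -1.15, -0.92, -0.67 and -0.47. Csf3r was among the 6 that rose, with 2.03. Cebpa reads of the mouse gene and of the retrovirus cannot be told apart. Whether retroviral reads count toward Csf3r is not stated in the sources used here. The 12 listed markers of mast cells and basophils were also all tested, led by the carboxypeptidase gene Cpa3 (23028 ± 597 and 14320 ± 982) and Gata2 (6415 ± 121 and 5786 ± 106). In RNA from whole cultures, more cells of a type and more RNA per cell cannot be told apart.

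The promoters of the members that moved furthest and had a sequence in the RefSeq table (build GRCm38.p6) are shown here from 250 bases before to 50 bases after the gene start, because members that differ between the groups can be set beside each other by their start regions. Sequences were found for 7 of the 10 members. Capitals mark GAGGAA or its reverse complement TTCCTC, a form of the core that PU.1, a myeloid transcription factor, binds. The windows are chr7:128062390-128062689 on the plus strand for Itgam, chr15:102231886-102232185 on the minus strand for Itgb7 and chr2:83724147-83724446 on the plus strand for Itgav.
Itgam: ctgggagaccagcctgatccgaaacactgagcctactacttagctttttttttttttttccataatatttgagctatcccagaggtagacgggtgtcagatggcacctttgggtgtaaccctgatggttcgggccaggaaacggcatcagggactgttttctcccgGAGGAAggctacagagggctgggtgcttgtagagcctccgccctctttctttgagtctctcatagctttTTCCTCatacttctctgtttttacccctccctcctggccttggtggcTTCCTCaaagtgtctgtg
Itgb7: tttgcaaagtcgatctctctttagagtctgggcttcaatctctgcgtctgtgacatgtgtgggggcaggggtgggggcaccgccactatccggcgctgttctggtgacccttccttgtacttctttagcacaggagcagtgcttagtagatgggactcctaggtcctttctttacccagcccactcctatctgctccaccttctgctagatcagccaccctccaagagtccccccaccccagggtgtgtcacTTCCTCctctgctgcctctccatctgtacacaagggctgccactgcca
Itgav: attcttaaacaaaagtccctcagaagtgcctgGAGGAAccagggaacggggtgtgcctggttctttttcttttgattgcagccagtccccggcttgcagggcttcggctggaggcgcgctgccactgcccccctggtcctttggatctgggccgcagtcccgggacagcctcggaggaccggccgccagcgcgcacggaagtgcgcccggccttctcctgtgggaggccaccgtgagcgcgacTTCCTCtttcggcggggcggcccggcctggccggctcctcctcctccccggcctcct
Itgam, which was higher with GSK-LSD1, had 3 matches, beginning at positions -84, -15 and 33 counted from the gene start. Itgb7, also higher, had 1 match, at position 3, and Itgav, which was lower, had 2, at positions -218 and -7. Of the other members, Itga2b had 2 matches and Itgb1 had 1, while the windows of Itga4 and Itgax held none. GAGGAA on either strand is present in 28.3% of the 32851 promoter windows of this length. AGATAA, a core bound by GATA factors, was found in Itgax alone among the 7 windows and in 11.2% of all windows, and AAATCA, a motif of the GFI1 type, in none of the 7 and in 14.0% of all. The 3 motifs were read on both strands and share no overlapping match in these windows. A match is a description of letters, found here in some genes that rose, in both that fell and in Itgb1, and not in Itga4, which rose.

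Among the beta2 integrins Itgam and Itgal rose, Itgax was too low to test, and the shared beta subunit gene Itgb2 did not pass the threshold. Itgam encodes CD11b, the alpha subunit of the complement receptor Mac-1 of neutrophils and monocytes, and lies on chromosome 7 from 128062640 to 128118491 (GRCm38, GENCODE M21). Its values were 658, 623 and 595 in the GSK-LSD1 libraries, against 161, 176 and 193 in the DMSO libraries. The groups did not overlap, and the lowest GSK-LSD1 library was over 3 times the highest DMSO library. The mean was 3.54-fold higher, or 1.82 ± 0.0806 (SE) as a log2 fold change (limma, Benjamini-Hochberg adjusted p = 5.26e-20). This difference was larger in size than that of 98.2% of the genes tested. In GENCODE M21, 68.7% of the exon bases of Itgam are shared with the gene model Gm49368 on the same strand, and whether the authors' counting used that model is not given in the sources used here, so the level of Itgam is uncertain.

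Itgal, which encodes CD11a of the lymphocyte and myeloid adhesion receptor LFA-1 (chromosome 7, 127296260 to 127335138), had the higher level per kb of exon, as given below, and a smaller difference. It had 1790.5, 1781 and 1711 in the GSK-LSD1 libraries and 1639.7, 1507 and 1517 in the DMSO libraries. All 3 GSK-LSD1 values were above all DMSO values, by 0.18 ± 0.0495 (SE) on the log2 scale (limma, Benjamini-Hochberg adjusted p = 0.00337). Itgb2, which encodes CD18, the partner of CD11a, CD11b, CD11c and CD11d (chromosome 10, 77530252 to 77565708), had 1014, 959.5 and 937 in the GSK-LSD1 libraries and 1042, 1087 and 1036 in the DMSO libraries. The GSK-LSD1 values lay just under the DMSO values without overlap, and groups without overlap were seen for 49.5% of all genes tested. The log2 fold change of Itgb2 was -0.12 with a 95% interval of -0.23 to -0.01, an unadjusted p of 0.0312 and an adjusted p of 0.0701 by limma.

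Itgax encodes CD11c, best known from dendritic cells, and lies 11.1 kb beyond the end of Itgam (chromosome 7, 128129547 to 128150657). It had 9, 3 and 5 reads in the GSK-LSD1 libraries and 7, 1 and 3 reads in the DMSO libraries, 17 and 11 reads in all. The groups overlapped, and a difference was not detectable at this depth. Without the filter on low values its log2 fold change was 0.66 (adjusted p = 0.347 by limma). Itgad, the gene of CD11d, starts 3.72 kb beyond Itgax and had 6 reads over the GSK-LSD1 libraries and 4 over the DMSO libraries. Of these 3 neighbouring alpha genes, Itgam alone was expressed above the filter.

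The share of Itgam among the alpha partners of beta2 was higher in every GSK-LSD1 library than in any DMSO library. Levels between genes were compared as scaled read counts per kb of merged exon length. With GSK-LSD1, Itgam made up 31.6% ± 0.614 of the summed level per kb of Itgam, Itgal, Itgax and Itgad, against 12.9% ± 1.48 with DMSO (SD, n = 3 each). Itgal made up 68.0% ± 0.760 with GSK-LSD1 and 86.7% ± 1.32 with DMSO. Per library, the log2 ratio of Itgam to Itgb2 was -0.62, -0.62 and -0.66 with GSK-LSD1 and -2.69, -2.62 and -2.42 with DMSO, a difference of 1.95. For Itgal to Itgb2 the ratio was 0.86 ± 0.0369 and 0.56 ± 0.0916, a difference of 0.30 on the log2 scale. On these levels, Itgal stayed the larger alpha level per kb in both groups. The shares and this order rest on the Itgam level, which is uncertain because of the exon bases shared with Gm49368, so neither is settled.

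Markers of mature myeloid cells moved in the same libraries as Itgam. Over all genes tested, 20.6% rose and 20.5% fell. Of 12 listed monocyte and macrophage markers 10 were tested, and 8 rose and none fell. Their summed value was 2804 to 3035 in the GSK-LSD1 libraries and 1105 to 1169 in the DMSO libraries, led by Lyz2 (1011 ± 101 and 244 ± 31.6) and Ccr2 (520 ± 31.4 and 284 ± 20.6). Ly6c2 and Mrc1 were under the filter. Of 12 listed neutrophil markers 8 were tested, and 7 rose and 1, Ngp, fell. Their sum was 22228 to 23009 with GSK-LSD1 and 4894 to 5366 with DMSO, led by Mmp8 (15579 ± 296 and 2376 ± 61.2) and S100a9 (4322 ± 98.3 and 1496 ± 97.8). Retnlg and Ltf were under the filter, and Camp and Ly6g had no row. Retnlg was at 0 in all DMSO libraries and had 9 reads over the GSK-LSD1 libraries. Ltf had 6 reads over the GSK-LSD1 libraries and 15 over the DMSO libraries. The part of these cell types in the Itgam result was not tested. Of 10 dendritic cell markers, 3 were tested, and Cd74 alone rose. Their sum was 157 to 183 with GSK-LSD1 and 140.4 to 150.4 with DMSO, and the most abundant, H2-Ab1 (63.7 ± 7.59 and 76.7 ± 0.907) and Ccr7 (54.3 ± 9.26 and 41.1 ± 2.87), did not pass. Flt3, Zbtb46, Xcr1 and Siglech were under the filter, as Itgax was.

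Itga4 and Itgb7, the subunits of the gut homing integrin, had the highest levels per kb of the 10 members in both groups, and both rose. Itga4, which encodes CD49d (chromosome 2, 79255426 to 79333123), had 14709.5, 15309.8 and 15573 in the GSK-LSD1 libraries, against 12005, 10911 and 11867 in the DMSO libraries. The groups did not overlap. The mean was 1.31-fold higher with GSK-LSD1, which is 0.39 ± 0.0450 (SE) in log2 (limma, Benjamini-Hochberg adjusted p = 6.41e-09). Of its exon bases, 8.04% overlap Cerkl on the other strand, and whether counting used strand is not stated in the sources used here, so reads of the 2 genes may be mixed.

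Itgb7, which encodes the beta subunit that pairs with alpha4 in the gut homing receptor and with alphaE (chromosome 15, 102215995 to 102231944), had 3424, 3209.8 and 3138 in the GSK-LSD1 libraries. It had 1633, 1688 and 1591 in the DMSO libraries. Every GSK-LSD1 value stood far above the DMSO values, 1.99-fold in the mean, or 0.99 ± 0.0473 (SE) as a log2 fold change (limma, Benjamini-Hochberg adjusted p = 4.28e-19). Itgb1, the beta subunit shared by the largest number of alpha subunits (chromosome 8, 128685654 to 128733200), had 1690.5, 1566 and 1694 with GSK-LSD1 and 1644, 1565 and 1633 with DMSO. Its groups overlapped, and its log2 fold change was 0.03 with a 95% interval of -0.07 to 0.13 (adjusted p = 0.636 by limma).

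The ratios of alpha4 to both of its beta partners did not overlap between the groups, though 3 libraries a group are too few for an exact test of a ratio to pass. The log2 ratio of Itga4 to Itgb7 was 2.10, 2.25 and 2.31 in the GSK-LSD1 libraries and 2.88, 2.69 and 2.90 in the DMSO libraries. It was lower by a difference of -0.60, while the ratio of Itga4 to Itgb1 was higher, 3.20 ± 0.0841 and 2.84 ± 0.0368, a difference of 0.36. Among 7 beta subunit genes, Itgb7 made up 51.4% ± 0.507 of the summed level per kb with GSK-LSD1 and 39.9% ± 0.770 with DMSO, as the plot of shares shows. The share of Itgb1 was 17.7% ± 0.820 and 26.7% ± 0.928, and that of Itgb2 13.9% ± 0.145 and 23.4% ± 0.421. The summed beta level was 2287 ± 96.1 per kb with GSK-LSD1 and 1479 ± 15.8 with DMSO, and the summed level of 17 alpha subunit genes was 2156 ± 14.4 and 1882 ± 66.9 (SD, n = 3 each).

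**Figure D2:**
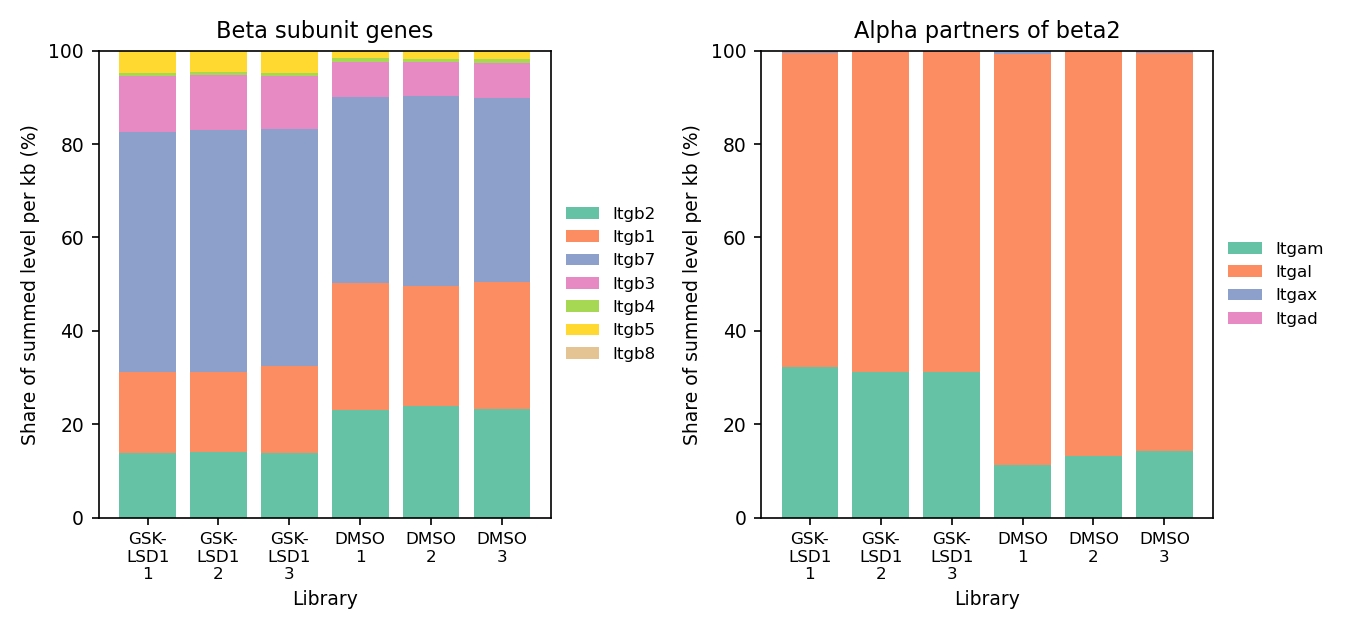
Share of each subunit gene in the summed level per kb, in percent, for 7 beta subunit genes (left) and the 4 alpha partners of beta2 (right), with 1 bar for each library and the GSK-LSD1 libraries left of the DMSO libraries. Itgb7 takes 51.4% of the beta level in the GSK-LSD1 libraries and 39.9% in the DMSO libraries, and Itgam takes 31.6% and 12.9% of the alpha level on the right. The level of Itgam is uncertain because of the exon bases shared with Gm49368.

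Genes of mast cells, basophils and lymphocytes, which carry alpha4 and beta7 integrins, were set beside these values. Of 12 mast cell and basophil markers, 5 rose, 2 (Fcer1a and Hdc) fell and 5 did not pass, and the sum was 45521 to 47045 with GSK-LSD1 and 36444 to 38928 with DMSO. None was at 0. Of 12 T and NK cell markers 3 were tested, and Nkg7 (124 ± 17.8 with GSK-LSD1 and 156 ± 22.4 with DMSO) and Lat fell. Klrb1c (43.8 ± 4.27 and 57.6 ± 5.04) did not pass, and the sum was 177 to 216 with GSK-LSD1 and 218 to 283 with DMSO. Cd3d and Cd3g were under the filter and went opposite ways. Cd3d was at 0 in all GSK-LSD1 libraries and had 3 reads over the DMSO libraries. Cd3g had 30 reads over the GSK-LSD1 libraries and 12 over the DMSO libraries. Of 10 B cell markers only Cd22 could be tested and rose (37.6 ± 4.64 and 5.62 ± 3.79). Cd79a, Igll1 and Cd79b were under the filter. Cd79a had 6 reads over the GSK-LSD1 libraries and was at 0 in all DMSO libraries. Igll1 was at 0 in all GSK-LSD1 libraries, and Cd79b had 1.33 ± 0.531 and 2.62 ± 1.49. The B cell sum was 40.8 to 48.7 with GSK-LSD1 and 8.92 to 14.9 with DMSO. The part of mast cell and basophil genes in the Itga4 and Itgb7 results was not tested.

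The alpha subunits of the beta3 integrins fell while the beta3 subunit rose. Itgb3, which encodes CD61 (chromosome 11, 104608000 to 104670476), had 1682, 1540.2 and 1491 in the GSK-LSD1 libraries, against 673, 643 and 655 in the DMSO libraries. The groups were far apart, 2.39-fold in the mean. The log2 fold change was 1.255 ± 0.0555 (SE; limma, Benjamini-Hochberg adjusted p = 5.04e-20), larger in size than that of 96.2% of the genes tested.

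Itgav, which encodes CD51, a partner of beta1, beta3, beta5, beta6 and beta8 (chromosome 2, 83724397 to 83806916), had 1509.9, 1489 and 1562 in the GSK-LSD1 libraries and 2731, 2397 and 2691 in the DMSO libraries. It stood lower in every GSK-LSD1 library and fell by 0.77 on the log2 scale (SE 0.0505; limma, Benjamini-Hochberg adjusted p = 3.62e-15). A log2 fold change of -0.5 or lower past the threshold was found for 3.37% of all genes tested. Of its exon bases, 5.90% overlap the gene model Gm13684 on the other strand, with the same uncertainty. Itga2b encodes CD41, the alpha subunit of the platelet fibrinogen receptor (chromosome 11, 102453297 to 102470122). Its values were 1637, 1649.9 and 1603 with GSK-LSD1 and 1929.7, 1940.2 and 1795 with DMSO, without overlap. It fell by 0.21 on the log2 scale (SE 0.0484; limma, Benjamini-Hochberg adjusted p = 0.000576).

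Of the 8 pairs compared, Itgav to Itgb3 and Itgam to Itgb2 had the widest gaps between the groups, with Itga2b to Itgb3 after them. Which of the first pairs was wider turned on 1 library: without DMSO replicate 3 the differences were -2.01 for Itgav to Itgb3 and 2.02 for Itgam to Itgb2. The log2 ratio of Itgav to Itgb3 was -0.16, -0.05 and 0.07 in the GSK-LSD1 libraries and 2.02, 1.90 and 2.04 in the DMSO libraries, a difference of -2.03. That of Itga2b to Itgb3 was -0.04, 0.10 and 0.10 with GSK-LSD1 and 1.52, 1.59 and 1.45 with DMSO, a difference of -1.47. Itgav to Itgb1 was -0.12 ± 0.0453 and 0.69 ± 0.0646, a difference of -0.81. In 7 of the 8 pairs the groups did not overlap. Of all genes tested singly, 49.5% had groups without overlap, and no such share was computed for ratios of other genes. The 8 pairs share subunits, so they are not independent of each other. Each of the 7 had an exact two-sided permutation p of 0.1, the smallest that 3 libraries against 3 allow, and 0.114 after Benjamini-Hochberg adjustment over the 8 pairs. Itgax to Itgb2, with -7.55 ± 0.743 and -8.60 ± 1.43, gave an exact permutation p of 0.4, also after adjustment. Its difference of 1.05 was 0.30 without DMSO replicate 2 and 1.72 without DMSO replicate 1.

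**Figure D3:**
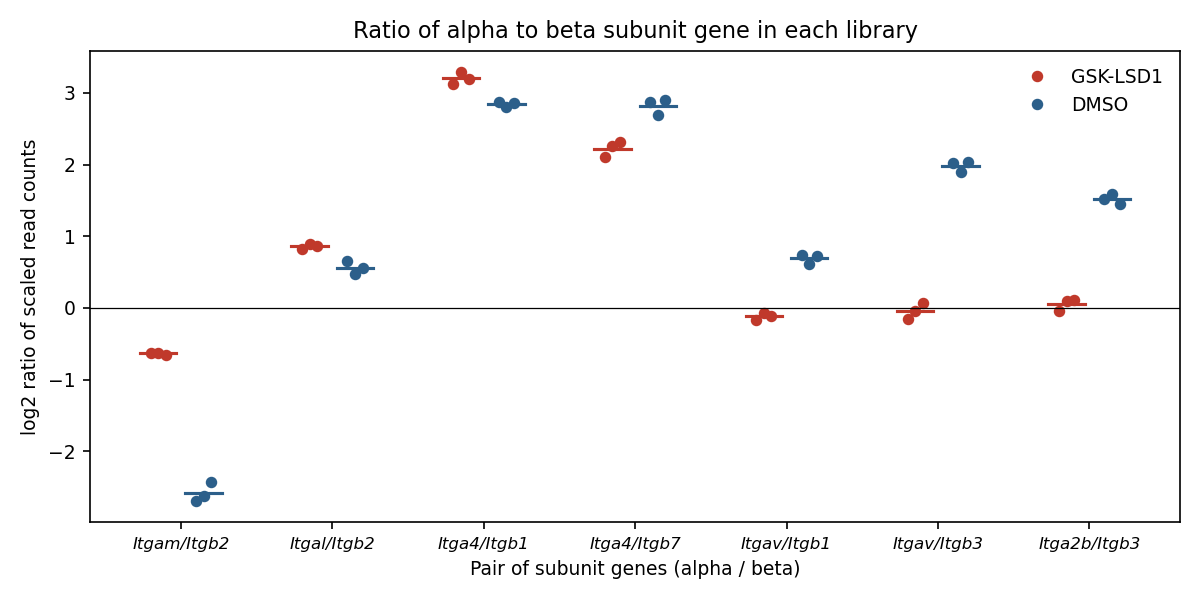
Log2 ratio of the scaled read counts of an alpha and a beta subunit gene in each library, for 7 pairs that form known receptors, with GSK-LSD1 (red) left of DMSO (blue) and a line at each group mean. Itgam to Itgb2 is higher by 1.95 in the GSK-LSD1 libraries, and Itgav to Itgb3 is lower, with a difference of -2.03.

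Other genes of platelets and their precursors changed in both directions. Of 15 listed megakaryocyte and platelet markers other than integrins 6 were tested, and 3 rose (F2r, Nbeal2 and Gp1ba), 1 fell (Pf4, 43.7 ± 2.89 and 59.6 ± 6.97) and 2 did not pass. The sum of those analysed was 8952 to 9331 in the GSK-LSD1 libraries and 5318 to 5481 in the DMSO libraries, most of it from the thrombin receptor gene F2r (6453 ± 135 and 3284 ± 28.6) and Nbeal2 (2233 ± 71.3 and 1678 ± 119), which other blood cells also express. Some genes of platelet glycoproteins were near 0, unlike Itga2b and Itgb3. Gp6, of the collagen receptor, was at 0 in all GSK-LSD1 libraries and had 2 reads over the DMSO libraries. Gp9 had 0.345 ± 0.598 and 0.656 ± 0.568, and Gp5 had 2.03 ± 1.78 and 6.26 ± 1.54. The part of megakaryocytes in the Itgb3 and Itga2b results was not tested. Of 12 listed erythroid markers 8 were analysed here, and all 8 were tested and fell, with a sum of 55.5 to 71.4 with GSK-LSD1 and 303 to 371 with DMSO, led by Epor (26.0 ± 8.03 and 56.0 ± 6.41) and Car2 (4.73 ± 5.64 and 72.2 ± 9.46). Of 13 stromal and endothelial markers 3 were analysed here, and all 3 rose, led by Pecam1 (4379 ± 56.5 and 3719 ± 249), which leukocytes also express, and Pdgfrb (292 ± 15.6 and 216 ± 3.87), with sums of 4674 to 4776 and 3782 to 4256.

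Per kb of merged exon, the order of the members was led by Itgb7 (1176 ± 53.7) and Itga4 (1087 ± 31.7) with GSK-LSD1 and by Itga4 (829 ± 42.6) and Itgb7 (591 ± 17.5) with DMSO. In the GSK-LSD1 group there followed Itgb1 (404 ± 17.9), Itgb2 (318 ± 13.0), Itga2b (299 ± 4.46), Itgal (268 ± 6.62), Itgb3 (266 ± 16.8), Itgav (142 ± 3.48), Itgam (124 ± 6.32) and Itgax (1.19 ± 0.651). In the DMSO group the order went on with Itgb1 (395 ± 10.5), Itga2b (346 ± 14.9), Itgb2 (346 ± 9.11), Itgav (243 ± 17.0), Itgal (237 ± 11.2), Itgb3 (111 ± 2.54), Itgam (35.2 ± 3.18) and Itgax (0.750 ± 0.619). On this length, Itgal and Itgb3 with GSK-LSD1 did not differ beyond their spread. The same held with DMSO for Itga2b and Itgb2 and for Itgav and Itgal. The lead and the order below it depend on the length used. With the longest coding transcript, chosen after the data were seen, Itga4 led Itgb7 in both groups. Their levels were 1556 and 1214 per kb with GSK-LSD1 and 1187 and 610.1 with DMSO. On that length Itga2b stood above Itgb1, with 474 and 433 with GSK-LSD1 and 549 and 423 with DMSO. Itgal and Itgb3 had 337 and 272 with GSK-LSD1. With DMSO, Itgb2 had 355, under Itga2b, and Itgav and Itgal had 369 and 298. Among 14409 genes with a length, the level of Itgb7 was above that of 97.7% of genes with GSK-LSD1 and 94.2% with DMSO, that of Itgam above 71.4% and 46.8%, and that of Itgb3 above 85.7% and 69.0%. The place of Itgam in these orders is uncertain because of its exon bases shared with Gm49368.

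The spread between replicates is given beside that of read counting alone, and 3 libraries estimate it only roughly. For Itga4 the coefficient of variation was 2.91% with GSK-LSD1 and 5.14% with DMSO, against 0.815% and 0.923% from counting. Itgb3 varied by 6.32% with GSK-LSD1 and 2.28% with DMSO, against 2.53% and 3.88% from counting, and Itgb7 by 4.57% and 2.96%, against 1.76% and 2.46%. Itgax varied by 54.7% and 82.4%, against 42.0% and 52.2% from counting.

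The genes whose pattern over the 6 libraries was nearest to that of Itgam, by the root-mean-square difference of log2(value + 1) centred on each gene's mean, were Mpzl2 (0.0803), Vim (0.0848) and Axl (0.0897), out of 9478 genes compared. Vim, the intermediate filament gene vimentin, had 10324 ± 435 with GSK-LSD1 and 2756 ± 37.0 with DMSO. For Itgb3 they were Mllt4 (0.0501), which encodes the junction protein afadin, Mtus1 (0.0592) and Parp8 (0.0599). Mllt4 had 996 ± 49.7 with GSK-LSD1 and 400.3 ± 14.6 with DMSO.

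Of the other integrin subunit genes, 15 of 17 listed were analysed and 9 tested, and 6 rose, 1 fell and 2 did not pass, with a median log2 fold change of 0.22. Itgb5, a beta partner of Itgav alone, differed most: it had 411, 356 and 369 in the GSK-LSD1 libraries and 86.9, 88.2 and 90.6 in the DMSO libraries, 4.28-fold higher, or 2.08 in log2 (limma, adjusted p = 3.72e-19). Its groups were far apart, and it rose beside Itgb3 while Itgav fell. Itgae, which encodes CD103, the other alpha partner of Itgb7, had 282, 248 and 204 with GSK-LSD1 and 139.7, 141 and 139 with DMSO, a log2 fold change of 0.79. Itga2, Itgb4, Itga1 and Itga5 rose with log2 fold changes of 0.89, 0.54, 0.22 and 0.20. Itga1 and Itga5 no longer passed without DMSO replicate 3, GSK-LSD1 replicate 1 or GSK-LSD1 replicate 2, nor did Itga1 without DMSO replicate 2. Itga7, at a low level, fell by 1.49 on the log2 scale, 9.10 ± 2.14 with GSK-LSD1 and 27.0 ± 2.91 with DMSO. Itga6 (log2 fold change 0.12) and Itga10 (-0.23) did not pass.

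**Figure D4:**
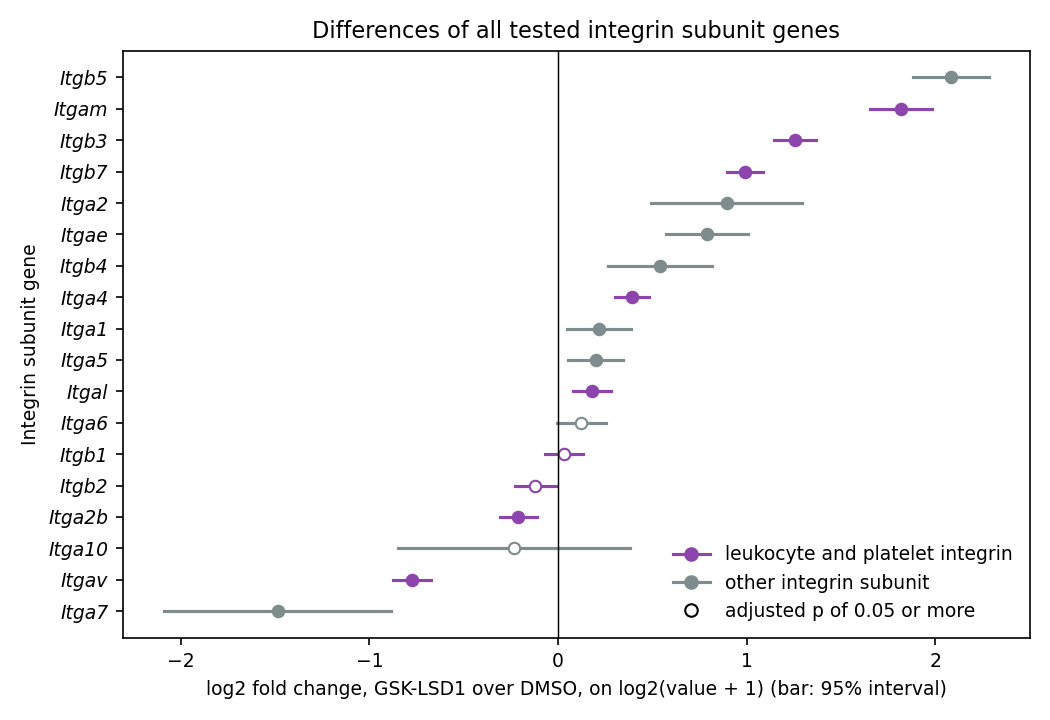
Log2 fold change of every tested integrin subunit gene, GSK-LSD1 over DMSO on log2(value + 1), with 95% intervals from limma, in purple for the leukocyte and platelet integrins and in grey for other subunits, open where the adjusted p is 0.05 or more. Itgb5 (2.08), Itgam (1.82) and Itgb3 (1.255) lie furthest to the right, and Itga7 (-1.49) and Itgav (-0.77) furthest to the left.

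Genes for integrin ligands changed in both directions. Of 21 listed, 11 were tested, and 3 rose, 5 fell and 3 did not pass (median log2 fold change -0.18). For this list, the other integrin subunits and the lists below, the share to set beside each count is that of all genes tested. Of those, 41.1% were called, 20.6% higher and 20.5% lower. Thbs1, the gene of thrombospondin 1, which binds beta3 integrins and CD47, had 1301, 1271 and 1315 in the GSK-LSD1 libraries and 334, 335 and 318 in the DMSO libraries, a log2 fold change of 1.98. C3, whose fragment iC3b is a ligand of Mac-1, rose with 1.08 on the log2 scale. Thy1, a counter-receptor of beta2 and beta3 integrins, fell by 1.69, Jam3 by 0.85 and Icam2, a ligand of LFA-1, by 0.53. Emilin1 rose (0.28), and Icam1 (-0.18) and Tgfb1 (-0.22) fell. Fn1, the fibronectin gene, was under the filter with 5.75 ± 3.22 and 1.65 ± 1.16.

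Among 15 tested genes of inside-out activation, by which cells switch integrins to the binding state, 7 rose, 1 fell and 7 did not pass (median 0.10). Tln1 (talin) and Fermt3 (kindlin-3), which bind beta subunit tails, did not pass, with 0.10 and 0.06 on the log2 scale, nor did Rap1a (0.08), Rap1b (0.04) or Apbb1ip (0.01). The genes that rose by at least 0.5 were the adaptor gene Skap1 (1.18, on values of 20.2 ± 3.28 with GSK-LSD1 and 8.57 ± 2.88 with DMSO), Cyth1, the gene of cytohesin-1, which binds CD18 (0.69), and Rasgrp2, an activator of Rap1 (0.59). Rapgef1 fell by 0.23. Of 9 tested negative regulators, 3 rose, 1 fell and 5 did not pass (median -0.02), beside 41.1% called over all genes tested. Rap1gap2 (0.78) and the filamin gene Flna (0.59), whose product competes with talin, rose most. Rasa3 rose as well (0.38), and Dok1 fell by 0.23, a call lost without DMSO replicate 2, GSK-LSD1 replicate 2 or GSK-LSD1 replicate 3.

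Of 24 tested genes of outside-in signalling, 10 rose, 3 fell and 11 did not pass (median 0.09). Src rose with a log2 fold change of 2.71 at low values, 26.2 ± 3.50 with GSK-LSD1 and 3.30 ± 1.54 with DMSO. Fgr, a Src family kinase of beta2 signalling in neutrophils, had 191, 172 and 168 with GSK-LSD1 and 65.4, 60.4 and 53.8 with DMSO, a log2 fold change of 1.55. Tyrobp, the gene of the adaptor DAP12 through which beta2 integrins signal to Syk, rose with 1.33, and Parvb with 1.48, while Syk did not pass (-0.04) and Ilk (-0.20), Plcg2 (-0.25) and Actn4 (-0.24) fell. Of 11 genes for membrane partners of integrins, 6 rose, 1 fell and 4 did not pass (median 0.25). The tetraspanin genes Cd81 (1.79, on values of 44.2 ± 9.42 and 12.2 ± 3.53) and Cd53 (0.54) and the urokinase receptor gene Plaur (0.82), whose product binds Mac-1, rose most, and Bsg fell by 0.26.

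**Figure D5:**
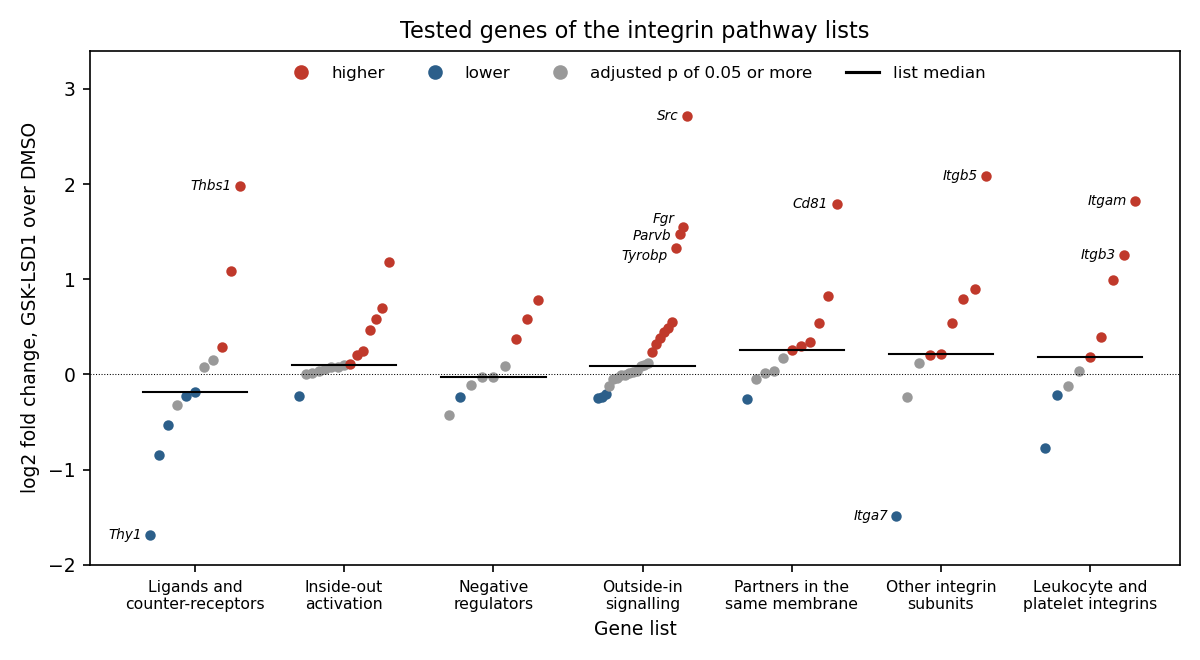
Log2 fold change, GSK-LSD1 over DMSO, of each tested gene in 7 lists of the integrin pathway, coloured by call, with a line at each list median. The list medians lie between -0.18 for ligands and 0.25 for membrane partners, with single genes such as Src (2.71), Itgb5 (2.08), Thbs1 (1.98) and Itgam (1.82) above them.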

How the data were processed

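Gene expression was measured by RNA-seq of total RNA in 3 GSK-LSD1 and 3 DMSO libraries, grouped by their titles. The authors deposited a scaled signal per gene symbol. The submitters' processing notes list DESeq2 and STAR, with GRCm38 and mm10 as builds, and no roles. Counter, annotation, strand setting and filters: not given in the sources used here. In every library 100% of the values were whole multiples of the smallest value (0.973 to 1.04), within 0.01 of a whole number, so they are read counts divided by 1 factor.

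The members and gene lists were chosen with earlier results of these data known. Genes with a value of at least 10 in at least 3 libraries were tested (11588, with 3447 left out), on the log2(value + 1) scale, two-sided, by limma 3.58.1 (R 4.3.3; prior variance following mean expression, no replicate term). Fold changes on this scale understate those of low genes. The test was tested on simulated data. From each pathway list, genes past the threshold with a log2 fold change of at least 0.5 either way were named, up to 4 per direction, with all tested integrin subunits and the 2 most abundant of each marker list. Other genes named in those lists were chosen after their values were seen. The nearest patterns, 3 per gene, were taken for members with a log2 fold change of at least 1, from genes averaging 50 or more. Member protein sequences, planned too, were not used here. Lengths and coordinates are from GENCODE M21 (GRCm38). Alternatives included edgeR 4.0.16 on the recovered counts, added after the data were seen (4784 genes called). For 2 DMSO libraries the factor is so near 1 that whole reads say less about it.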

Additional observations from a re-analysis of the deposited data

How the results depend on the processing

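All 9 tested members kept their direction and their side of the threshold in each of 14 alternatives, 126 of 126 values: pseudocounts of 0.5 and 5, no filter, a mean value of at least 50, quantile and TMM scaling, the replicate block, each library left out and edgeR on recovered reads, the last added after the data were seen. The count was 5 higher and 2 lower in all of them, also when leaving out each library. Itgb2 stayed only just short of the threshold without GSK-LSD1 replicate 1 (limma, adjusted p = 0.0502). Over all genes tested, leaving out 1 library gave 2056 to 2363 higher and 1961 to 2289 lower, and edgeR called 2463 and 2321. The direction of all 8 subunit ratios held with a pseudocount of 1 and in the alternatives that left out 1 library, where Itgam to Itgb2 ranged from 1.89 to 2.02, Itgav to Itgb3 from -2.09 to -1.98 and Itgax to Itgb2 from 0.30 to 1.72. Equal replicate numbers gave no sign of paired samples: the deviations of same-numbered libraries correlated at -0.02, -0.03 and -0.01 over genes. Those of differently numbered libraries correlated at -0.01 to 0.03. Correlations over all genes, many of them low, cannot exclude a small effect shared by equal numbers. With the replicate block, 2345 genes were higher and 2316 lower, and the exact p of the ratios cannot go below 0.25 in that pairing.

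For the gene lists, the 1 other integrin subunit that fell, Itga7, is under a mean value of 50, which gave a count of 0. The count of negative regulators that fell, 1 (Dok1), was 2 with quantile scaling and ranged from 0 to 1 when leaving out 1 library, being 0 without DMSO replicate 2, GSK-LSD1 replicate 2 or GSK-LSD1 replicate 3. The cause was not tested. Leaving out 1 library gave 4 to 6 other integrin subunits higher, against 6, and 5 to 7 activation genes higher, against 7. Skap2 was lost without GSK-LSD1 replicate 2 or 3. Stk4 was lost without DMSO replicate 1, DMSO replicate 2 or any 1 of the GSK-LSD1 libraries. Without DMSO replicate 1 the count stayed at 7 although Stk4 was lost. Depth limits Itgax and Itgad, which had under 10 reads in every library.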
